A study of Mus musculus with 21 samples.

Results

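The circadian clock genes described here are 10 genes chosen by name: Arntl, Npas2, Per1, Per2, Per3, Ciart, Nr1d1, Nr1d2, Dbp and Tef. They are 10 of the 55401 genes in the count table, and each symbol matched 1 Ensembl identifier. All 10 passed the filter on low counts, which kept 22863 genes in the fit of all 21 mice. The study sequenced forebrain RNA to ask how human APOE alleles shape the outcome of mutant tau expression in mice. For the clock genes, the questions are whether their expression differs with tau or with the APOE allele, and whether clock phase differs between mice.

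The 3 parental groups, E2H, E3H and E4H, are homozygous for a targeted swap of mouse Apoe to a human allele, APOE2, APOE3 and APOE4 in turn, and each holds 3 mice aged 9 to 10 months. The 3 groups named PS/E2H, PS/E3H and PS/E4H hold 4 mice each; they have the same APOE replacement and 1 copy of the PS19 transgene, human tau with the P301S mutation under the mouse prion protein promoter. These 12 mice, called PS19 mice here, were killed when their hindlimbs became paralysed. The transgene, the paralysis and the age at death therefore cannot be told apart. The PS19 line was kept on a B6/C3H background and the APOE replacement lines on C57BL6, and the PS19 mice came from a backcross of the crossed offspring to the APOE lines, so genetic background may also differ between PS19 and parental mice. All mice lived under a 12-h light and 12-h dark cycle. The time of day at which each mouse was killed is not in the labels.

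Whole frozen forebrain gave stranded poly(A) libraries, with 1 library per mouse. Total counts ran from 61093230 to 75533642 in E2H, from 60394625 to 75932183 in E3H and from 66983058 to 74756427 in E4H. They ran from 59265459 to 70384215 in PS/E2H, from 61065315 to 72693566 in PS/E3H and from 60883889 to 63751715 in PS/E4H. At this depth the fewest counts of a clock gene in any mouse were 597, for Ciart, and the most were 29811, for Tef. The library of E2H 2 stood apart, with the fewest genes detected of all mice, 24438. Its 10 most abundant genes held 10.26% of counts, the largest such share, and its TMM factor was the lowest at 0.927. Within E2H it had the most Dbp and the least Arntl, Per3 and Nr1d2. Expression per mouse is given in CPM, counts scaled to a common library size after TMM correction.

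The sex of the mice, as read from 2 transcripts, went against the study's methods. Those describe the sequenced mice as male apart from 4 females, of which E4H and PS/E2H had 1 each and PS/E4H had 2. In the counts, 17 mice had 205 to 483 CPM of Xist, the RNA of the inactive X chromosome, with at most 0.341 CPM of the Y-linked gene Ddx3y. The other 4 mice, E4H 3, PS/E2H 2, PS/E4H 1 and PS/E4H 4, had 43.0 to 65.3 CPM of Ddx3y and 2.54 to 2.89 CPM of Xist. Some results are also given below without these 4 mice, or with them as a covariate.

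In the mammalian clock, Arntl pairs with Clock or Npas2 and switches on the Per and Cry genes, whose proteins return to block that pair. A second loop runs through Nr1d1 and Nr1d2, which repress Arntl and Npas2, and through output factors such as Dbp and Tef, which drive rhythmic genes further down. Arntl and Dbp transcripts peak at nearly opposite times of day in most tissues, and Per1 also responds to neuronal activity and to glucocorticoids.

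Compared per transcript length, in FPKM (fragments scaled by transcript length and library size) given by the authors, Tef had the highest mean level over 21 mice at 43.1 ± 3.26 (SD). Nr1d1 followed at 35.8 ± 3.86, Dbp at 22.9 ± 5.32, Nr1d2 at 22.5 ± 3.44 and Per1 at 10.8 ± 2.41. The remaining levels were lower, with Ciart at 7.395 ± 2.49, Npas2 at 5.565 ± 0.944, Per2 at 3.88 ± 0.921, Arntl at 3.58 ± 0.633 and Per3 at 3.13 ± 0.624. In this order Dbp and Nr1d2, Ciart and Npas2, Per2 and Arntl, and Arntl and Per3 are neighbours whose means differed by less than the larger SD of the pair.

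**Figure D1:**
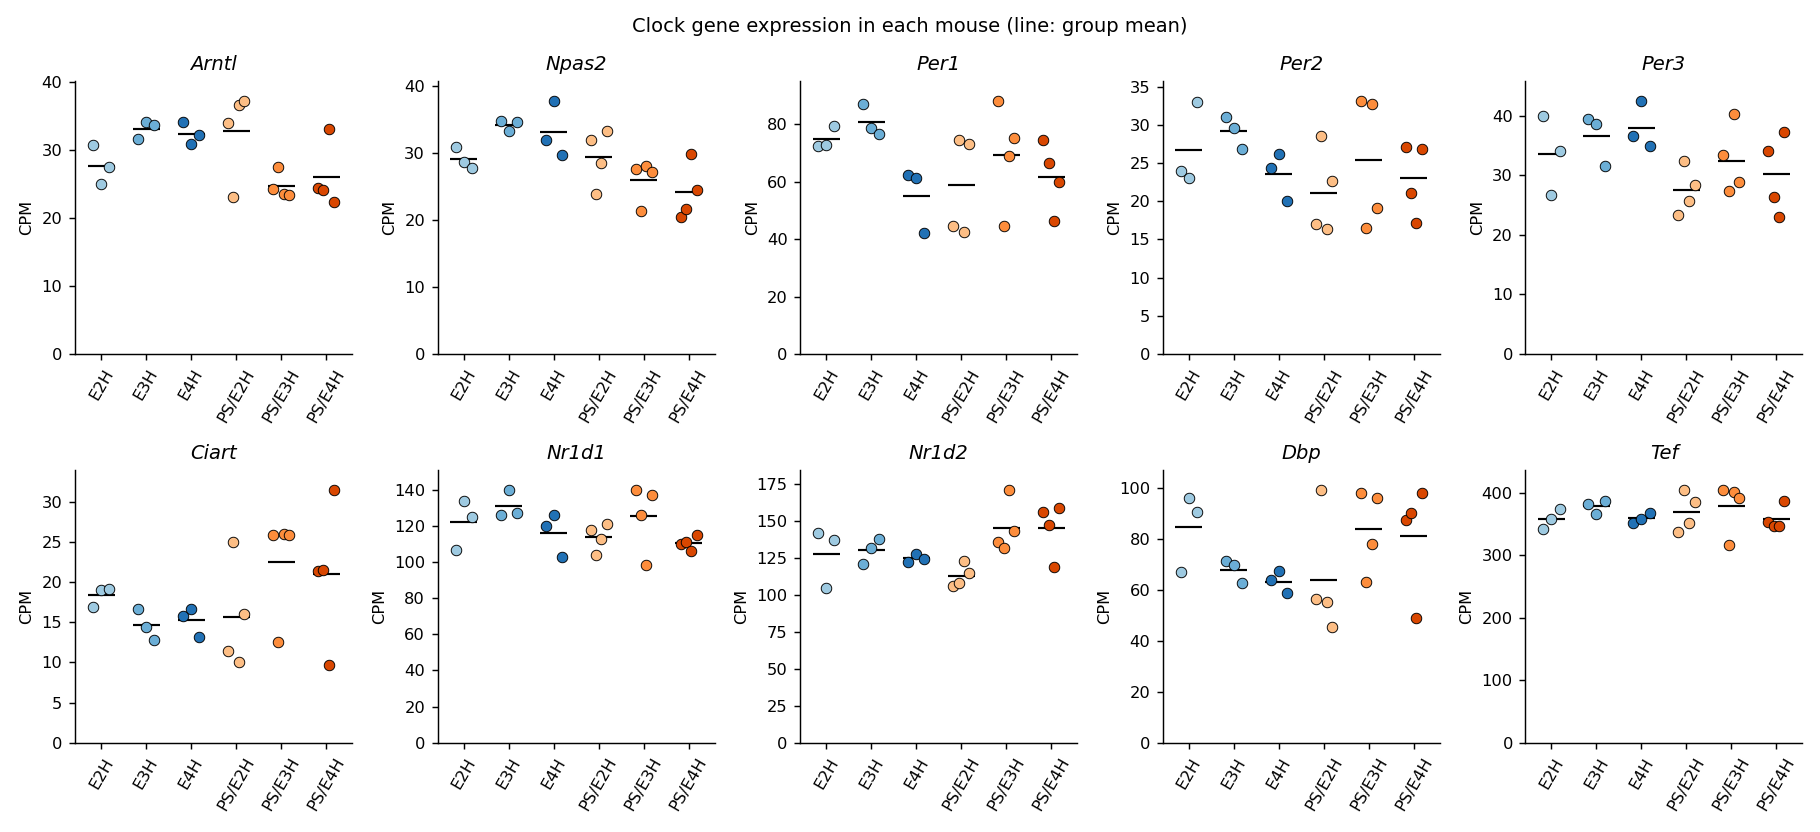
CPM of each of the 10 clock genes in each mouse (points) with the mean of each of the 6 groups (lines); parental groups are blue and PS19 groups orange. Arntl in PS/E3H lies between 23.4 and 27.5 CPM, under the 3 E3H mice at 31.6 to 34.2, while Ciart in the PS19 groups spans 9.70 to 31.5 CPM.

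The promoters of the members were searched for 3 short motifs of clock factors. The letters were chosen after these sequences had been looked at, so the shares of windows given here and below only describe how common the letters are. Windows from 250 bases before to 50 after a RefSeq start site (GRCm38.p6) were at hand for 9 of the 10 genes, 12 windows in all, and the gene without one is Per2. The E-box CACGTG, the letters bound by Arntl with its partners, reads the same on both strands and was present in 7.15% of all 32851 windows. The D-box TTATGTAA, read by Dbp and Tef, or its reverse complement TTACATAA was present in 0.938%. TAGGTCA, a core of the element read by Nr1d1 and Nr1d2, or its reverse complement TGACCTA was present in 2.61%. All positions given are on that build. No match in a member overlapped a match of another motif. Stretches holding matches are printed below with the match in capitals, so that a reader can see which motif each gene carries; a match is a description of letters only, and the stretches leave out annotated exons of the gene, except that of Arntl, whose match lies after the start site in an annotated transcript.

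Arntl (ENSMUSG00000055116, chr7:113207465-113314126, plus strand) codes for the obligate partner in the activating pair. Its second window held 1 TAGGTCA, 30 bases after the start site, in the stretch chr7:113207531-113207555 on the plus strand.
Arntl: aggcagaaagTAGGTCAgggacgga
The E2H mice had 30.7, 25.0 and 27.5 CPM of Arntl, the E3H mice 31.6, 34.2 and 33.7, and the E4H mice 34.1, 30.9 and 32.2. PS/E2H mice had 34, 23.1, 36.7 and 37.2 CPM, PS/E3H mice 24.3, 27.5, 23.5 and 23.4, and PS/E4H mice 24.5, 24.2, 33.1 and 22.4. All 4 PS/E3H mice were below all 3 E3H mice, and 3 of 4 PS/E4H mice were below all E4H mice, the exception being PS/E4H 3. In PS/E2H the order was turned, with 3 of 4 mice above all E2H mice and PS/E2H 2 below them.

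Arntl was lower in PS/E3H, with a mean of 24.7 ± 1.90 CPM (SD, n = 4) against 33.2 ± 1.36 (n = 3) in E3H, a log2 fold change of -0.44 (SE 0.0833) with an adjusted p of 0.0185 by edgeR. In PS/E4H against E4H the log2 fold change was -0.32 (SE 0.125), adjusted p 0.114 by edgeR, lower in 3 of 4 mice, and did not pass. Without PS/E4H 3, the mouse against the change, it was -0.45 (SE 0.0812) with an adjusted p of 0.00666 by edgeR. That smaller p follows from which mouse is left out, and leaving out any other single mouse gave no call of Arntl. In PS/E2H against E2H the log2 fold change was 0.23 (SE 0.166), adjusted p 0.707 by edgeR, higher in 3 of 4 mice, and did not pass either. The difference of the tau effect between E2H and E3H was 0.68 for Arntl, with an adjusted p of 0.843 by edgeR, so the lines are not shown to differ. In bulk tissue, fewer cells of a type and less RNA per cell cannot be told apart for this or any gene below. The Arntl call in E3H ended without E3H 1, 2 or 3 or without PS/E3H 4, with adjusted p from 0.0539 to 0.0855 by edgeR, and no fold change turned its sign.

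Npas2 (ENSMUSG00000026077, chr1:39193731-39363236, plus strand) codes for a forebrain partner of Arntl that can stand in for Clock. The E2H mice had 30.9, 28.7 and 27.7 CPM of Npas2, the E3H mice 34.7, 33.2 and 34.6, and the E4H mice 31.9, 37.7 and 29.7. With tau, PS/E2H mice had 31.9, 23.9, 28.5 and 33.3 CPM, PS/E3H mice 27.6, 21.3, 28.0 and 27.1, and PS/E4H mice 20.5, 21.7, 29.8 and 24.5. All 4 PS/E3H mice were below all E3H mice, 3 of 4 PS/E4H mice were below all E4H mice, and the PS/E2H mice overlapped E2H.

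Npas2 was lower in PS/E3H (26.0 ± 3.14 CPM, SD, n = 4) than in E3H (34.1 ± 0.813, n = 3), with a log2 fold change of -0.40 (SE 0.1) and an adjusted p of 0.0437 by edgeR. It was also lower in PS/E4H (24.1 ± 4.14, n = 4) than in E4H (33.1 ± 4.14, n = 3), with a log2 fold change of -0.46 (SE 0.134) and an adjusted p of 0.0430 by edgeR, below the E4H mean in 4 of 4 mice. With the APOE line as a covariate, all 12 PS19 mice against all 9 parental mice gave -0.28 (SE 0.0837), adjusted p 0.0189 by edgeR, and 10 of 12 PS19 mice were below their line's mean. In PS/E2H against E2H the log2 fold change was 0.01 (SE 0.128), adjusted p 0.991 by edgeR, with 2 of 4 mice on each side of the E2H mean. The difference of the tau effect between E4H and E2H was -0.47 for Npas2, with an adjusted p of 0.436 by edgeR. With the 4 mice high in Ddx3y as a covariate, the change in E4H was -0.43 with an adjusted p of 0.0542 by edgeR, and the pooled change was -0.25 with an adjusted p of 0.0299. Leaving out single mice ended the E3H call except without PS/E3H 1, with adjusted p from 0.0513 to 0.173 by edgeR, and the E4H call except without PS/E4H 3, with adjusted p from 0.0550 to 0.202. The pooled call ended without E4H 2 only, where the change was -0.24 and the adjusted p 0.0533 by edgeR. E4H 2 had the highest Npas2 of all 21 mice, at 37.7 CPM, and little Rora, at 2.69 CPM, as described at the end. Whether these are linked was not tested.

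Per1 (ENSMUSG00000020893, chr11:69095217-69109960, plus strand) codes for a repressor of the activating pair and is the Per gene best known for a quick response to stimuli. Its first window held 1 E-box, 166 bases before the start site, in the stretch chr11:69098699-69098947 on the plus strand.
Per1: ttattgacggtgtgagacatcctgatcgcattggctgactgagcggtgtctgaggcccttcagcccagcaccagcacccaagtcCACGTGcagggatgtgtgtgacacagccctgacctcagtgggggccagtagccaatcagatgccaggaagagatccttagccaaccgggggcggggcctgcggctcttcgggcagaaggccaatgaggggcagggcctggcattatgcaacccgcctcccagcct
The E2H mice had 72.3, 72.8 and 79.5 CPM of Per1, the E3H mice 87.0, 78.7 and 76.6, and the E4H mice 62.2, 61.3 and 42. PS/E2H mice had 44.7, 74.4, 42.4 and 73.2 CPM, PS/E3H mice 88.0, 44.5, 69.0 and 75.3, and PS/E4H mice 74.4, 66.4, 46.4 and 60. All E4H mice were below all E2H and E3H mice, and each PS19 group held low mice near 45 CPM beside mice at 60 CPM or more.

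Between E4H and E3H the log2 fold change of Per1 was -0.55 (SE 0.127) with an adjusted p of 0.285 by edgeR, and -0.55 with an adjusted p of 0.000598 by DESeq2, so its call depends on the tool. E4H 3, the lowest of the 3 at 42 CPM, is the E4H mouse with more Ddx3y than Xist. By edgeR Per1 was also not called without E4H 3 or with the 4 Ddx3y mice as a covariate. No fold change is given for those fits. No comparison of PS19 with parental mice called Per1 by edgeR or DESeq2, with log2 fold changes of -0.36 in E2H, -0.23 in E3H and 0.16 in E4H.

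Per2 (ENSMUSG00000055866, chr1:91415982-91459324, minus strand), a core repressor that partners the Cry proteins, had 20.1 to 33.0 CPM in the 9 parental mice and 16.4 to 33.1 CPM in the 12 PS19 mice. Its PS19 mice lay outside the range of their line's parental mice in 10 of 12 cases, 6 below and 4 above. No comparison called Per2 by edgeR or DESeq2, and the pooled log2 fold change was -0.19 (SE 0.130).

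Per3 (ENSMUSG00000028957, chr4:151003652-151044665, minus strand) codes for a Per protein with a lesser part in the core loop, and it lies inside the span of Camta1 on the same strand. Its window held 2 D-boxes, 205 and 158 bases before the start site, in the stretch chr4:151044666-151044915 on the minus strand; 0.0213% of all windows held 2 or more.
Per3: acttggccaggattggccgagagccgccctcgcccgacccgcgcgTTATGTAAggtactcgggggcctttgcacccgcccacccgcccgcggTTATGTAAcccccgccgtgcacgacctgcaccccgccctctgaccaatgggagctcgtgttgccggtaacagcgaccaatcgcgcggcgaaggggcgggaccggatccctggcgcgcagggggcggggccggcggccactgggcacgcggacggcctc
The E2H mice had 39.9, 26.7 and 34.1 CPM of Per3, the E3H mice 39.5, 38.6 and 31.6, and the E4H mice 36.5, 42.4 and 34.9. With tau, PS/E2H mice had 23.4, 32.3, 25.7 and 28.4 CPM, PS/E3H mice 33.3, 27.4, 40.2 and 28.8, and PS/E4H mice 34, 26.3, 22.9 and 37.3. The groups overlapped in every line, but 11 of 12 PS19 mice were below their line's mean. Over all mice Per3 was lower in PS19 mice, 30.0 ± 5.45 CPM (SD, n = 12) against 36.0 ± 4.81 (n = 9), with a log2 fold change of -0.27 (SE 0.0931) and an adjusted p of 0.0445 by edgeR. Leaving out single mice kept this call in 7 of 21 cases, those without E2H 2, E3H 3, PS/E2H 2, PS/E3H 1, PS/E3H 3, PS/E4H 1 or PS/E4H 4. Without any single one of the other 14 mice the log2 fold change was -0.28 to -0.23 and the adjusted p 0.0501 to 0.0984 by edgeR. With the 4 Ddx3y mice as a covariate it was -0.31 with an adjusted p of 0.0180 by edgeR.

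Ciart (ENSMUSG00000038550, chr3:95878503-95882251, minus strand), which codes for a repressor of the Arntl pair, overlaps C920021L13Rik on the opposite strand. Its window held 3 E-boxes, 116, 58 and 44 bases before the start site, in the stretch chr3:95882252-95882478 on the minus strand; 0.0883% of all windows held 3 or more.
Ciart: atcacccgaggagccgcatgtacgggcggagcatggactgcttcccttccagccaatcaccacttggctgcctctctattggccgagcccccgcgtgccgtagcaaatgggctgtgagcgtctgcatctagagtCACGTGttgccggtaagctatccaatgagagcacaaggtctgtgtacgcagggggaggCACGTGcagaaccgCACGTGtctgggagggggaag
The E2H mice had 16.9, 19.0 and 19.2 CPM of Ciart, the E3H mice 16.7, 14.4 and 12.8, and the E4H mice 15.8, 16.7 and 13.2. PS/E2H mice had 11.4, 25.0, 10 and 16.1 CPM, PS/E3H mice 25.9, 12.5, 26.0 and 25.9, and PS/E4H mice 21.4, 21.5, 9.70 and 31.5. Every PS19 mouse lay outside the range of its line's 3 parental mice, 7 above and 5 below.

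The log2 fold change of Ciart in PS/E3H against E3H was 0.62 (SE 0.228) with an adjusted p of 0.147 by edgeR and 0.0260 by DESeq2, higher in 3 of 4 mice. Without PS/E3H 2, the low mouse of its group at 12.5 CPM, it was 0.82 (SE 0.109) with an adjusted p of 0.00714 by edgeR, but that mouse is the one against the change, and leaving out any of the other 6 mice gave no call of Ciart. In PS/E4H against E4H it was 0.46 (SE 0.299), higher in 3 of 4 mice, with an adjusted p of 0.342 by edgeR. Without PS/E4H 3, at 9.70 CPM and again the mouse against the change, it was 0.70 (SE 0.163) with an adjusted p of 0.0196 by edgeR. In PS/E2H against E2H it was -0.24 (SE 0.273), lower in 3 of 4 mice, with an adjusted p of 0.841 by edgeR.

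Nr1d1 (ENSMUSG00000020889, chr11:98767932-98775333, minus strand), a repressor of Arntl and Npas2, overlaps Thra on the opposite strand and had 103 to 140 CPM in parental and 98.6 to 140 CPM in PS19 mice. It was called in no comparison by edgeR or DESeq2. None of the 3 motifs was in the windows of Nr1d1, Nr1d2, Dbp or Npas2, which says only that these letters are not in those windows.

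Nr1d2 (ENSMUSG00000021775, chr14:18204054-18239127, minus strand), the related repressor, had 142, 105 and 137 CPM in E2H, 121, 132 and 138 in E3H, and 122, 128 and 124 in E4H. With tau, PS/E2H mice had 106, 108, 123 and 115 CPM, PS/E3H mice 136, 132, 171 and 143, and PS/E4H mice 156, 147, 119 and 159. All PS/E3H mice were above all PS/E2H mice, as were 3 of 4 PS/E4H mice. By edgeR the log2 fold change of PS/E2H against PS/E3H was -0.37 (SE 0.0910) with an adjusted p of 0.349, and by DESeq2 -0.37 with an adjusted p of 0.0385. PS/E4H against PS/E2H gave 0.36 (SE 0.0938) with an adjusted p of 0.270 by edgeR, and 0.36 with an adjusted p of 0.0474 by DESeq2. Against E4H, PS/E4H gave 0.21 (SE 0.0927) with an adjusted p of 0.152 by edgeR, higher in 3 of 4 mice. Without PS/E4H 3, the mouse against the change, PS/E4H gave 0.30 (SE 0.061) with an adjusted p of 0.0109 by edgeR.

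Dbp (ENSMUSG00000059824, chr7:45705088-45710203, plus strand), an output transcription factor that the activating pair drives directly, overlaps Sphk2 on the opposite strand. The E2H mice had 67.2, 96.2 and 90.7 CPM of Dbp, the E3H mice 71.5, 69.9 and 62.7, and the E4H mice 63.8, 67.3 and 58.7. PS/E2H mice had 56.3, 99.3, 55.1 and 45.3 CPM, PS/E3H mice 98.0, 63.2, 78.1 and 96.0, and PS/E4H mice 87.3, 90.4, 48.8 and 98.2. In PS/E2H 1 mouse was above and 3 were below all E2H mice, while in PS/E3H and PS/E4H 3 of 4 mice were above all parental mice of their line.

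No comparison of all mice called Dbp by edgeR or DESeq2. Its log2 fold change was -0.41 (SE 0.239) in PS/E2H, 0.29 (SE 0.137) in PS/E3H and 0.35 (SE 0.192) in PS/E4H against the parental group, with adjusted p of 0.617, 0.254 and 0.252 by edgeR. Without PS/E4H 3 the change in E4H was 0.54 (SE 0.0742) with an adjusted p of 0.00201 by edgeR. PS/E4H 3 is the mouse that goes against the change for Dbp, as for Arntl, Ciart and Nr1d2, so a smaller p without it follows from which mouse is left out. Of the 3 mice then left in PS/E4H, 2 have more Ddx3y than Xist, as has 1 of 3 in E4H. The difference of the tau effect between E4H and E2H was 0.76 for Dbp, with an adjusted p of 0.481 by edgeR.

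Tef (ENSMUSG00000022389, chr15:81802421-81826863, plus strand), an output factor of the same family as Dbp, had 343 to 387 CPM in parental and 316 to 405 CPM in PS19 mice. It was called in no comparison by edgeR or DESeq2, and the pooled log2 fold change was 0.01 (SE 0.0445). Each of its 2 windows held 1 E-box, 127 and 138 bases before the start sites, and the second is in the stretch chr15:81811164-81811413 on the plus strand.
Tef: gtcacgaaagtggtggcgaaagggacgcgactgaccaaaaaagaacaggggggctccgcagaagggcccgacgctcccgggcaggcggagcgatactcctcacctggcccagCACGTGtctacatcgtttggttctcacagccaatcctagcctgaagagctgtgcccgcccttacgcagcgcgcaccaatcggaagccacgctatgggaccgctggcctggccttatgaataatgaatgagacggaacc
The E-boxes thus lay in the windows of Per1, Ciart and Tef, the D-boxes in that of Per3, and TAGGTCA in that of Arntl.

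Across the 10 members, the tau comparisons gave few calls. In PS/E2H against E2H, edgeR at an adjusted p under 0.05 called 0 members higher beside 0.669% of 20617 genes, and 0 lower beside 0.0825%; at an unadjusted p under 0.05 there were 0 members beside 10.7% of genes, and DESeq2 called 0, among 635 genes. In PS/E3H against E3H edgeR called 0 members higher beside 3.35% of 21251 genes, and 2 lower, Arntl and Npas2, beside 2.02%; 3 members had an unadjusted p under 0.05, beside 21.4% of genes, and DESeq2 called 3, among 2327. In PS/E4H against E4H edgeR called 0 higher beside 8.62% of 20844 genes, and 1 lower, Npas2, beside 6.98%; 3 members had an unadjusted p under 0.05, beside 30.1% of genes, and DESeq2 called 1, among 4396. Over all 21 mice edgeR called 0 higher beside 11.4% of 22863 genes, and 2 lower, Per3 and Npas2, beside 9.63%; 2 members had an unadjusted p under 0.05, beside 32.2% of genes, and DESeq2 called 2, among 5492. The 4 tau comparisons share mice. The median log2 fold change of the members was -0.21 in E2H, -0.13 in E3H, -0.02 in E4H and -0.11 over all mice, against -0.02, -0.00428, -0.0023 and -0.00603 over all genes tested.

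**Figure D2:**
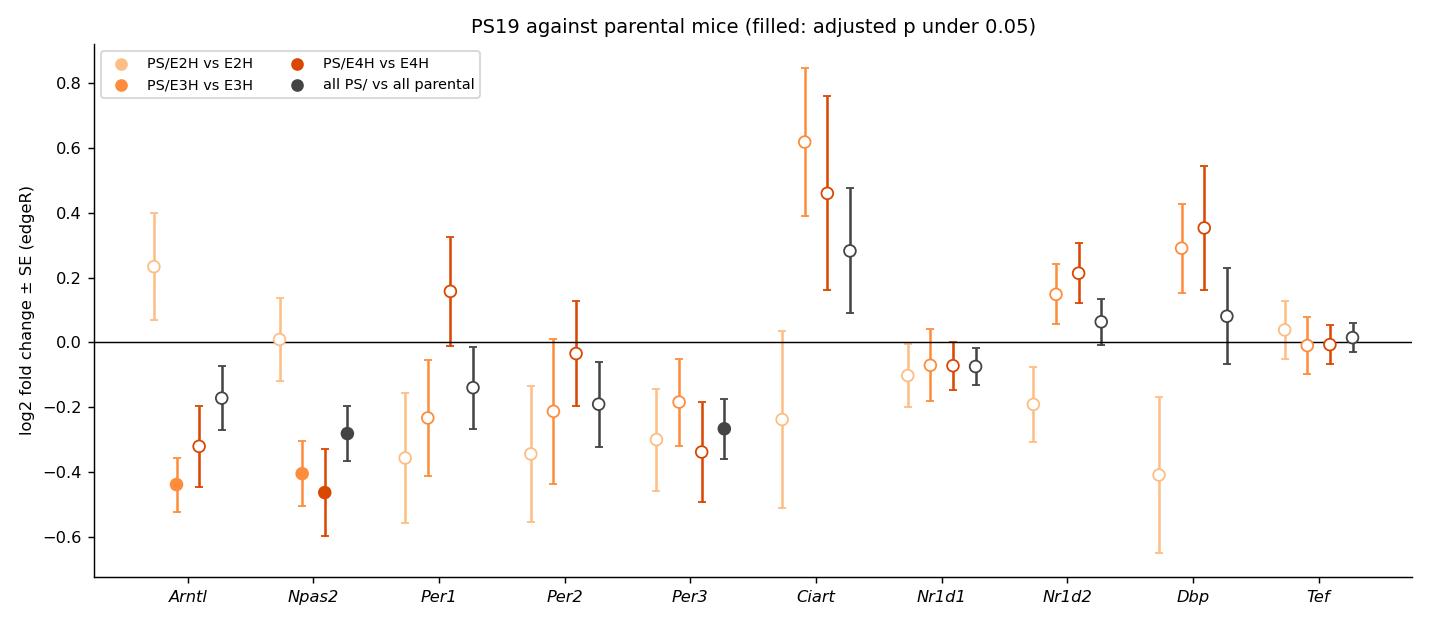
Log2 fold change of each clock gene (edgeR, error bars 1 SE) of PS19 against parental mice in each APOE line and over all mice; filled points have an adjusted p under 0.05. Filled points are Arntl at -0.44 and Npas2 at -0.40 in E3H, Npas2 at -0.46 in E4H, and Per3 at -0.27 and Npas2 at -0.28 over all mice.

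Comparisons between APOE lines, without or with tau, called 0 members by edgeR at an adjusted p under 0.05. In the paper, PS/E3H mice reached paralysis later than PS/E2H and PS/E4H mice, and PS19 mice were killed at paralysis. Allele and age at death therefore cannot be told apart between the PS19 groups. The mice with more Ddx3y than Xist were in E4H, PS/E2H and PS/E4H only, so sex also differs between lines. E2H against E3H had 0 called beside 0.178% of 20797 genes, with 4 members at an unadjusted p under 0.05 (Arntl, Npas2, Ciart and Dbp), beside 14.1% of genes, and 0 by DESeq2, among 599 genes. E4H against E3H had 0 beside 0.162% of 20958 genes, with 2 members at that unadjusted p (Per1 and Per2), beside 6.67%, and 1, Per1, among 134 genes by DESeq2. E4H against E2H had 0 beside 0.216% of 20804 genes, with 3 members at that unadjusted p (Per1, Dbp and Arntl), beside 12.4%, and 0 by DESeq2, among 293 genes.

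Among the PS19 groups, PS/E2H against PS/E3H had 0 members called by edgeR beside 0.113% of 20324 genes, with 2 at an unadjusted p under 0.05 (Nr1d2 and Arntl), beside 11.7% of genes, and 1, Nr1d2, among 148 genes by DESeq2. PS/E4H against PS/E3H had 0 beside 0.0197% of 20332 genes, with 0 at that unadjusted p, beside 6.51%, and 0 by DESeq2, among 44 genes. PS/E4H against PS/E2H had 0 beside 0.119% of 20202 genes, with 1 at that unadjusted p, beside 12.3%, and 1 by DESeq2, Nr1d2 in each case, among 224 genes by DESeq2. Tests of whether the tau effect differs between lines called 0 members by edgeR in each of 3 pairs, beside 0% of 22133 genes for E2H and E3H, 0% of 22212 for E4H and E3H, and 0% of 22031 for E4H and E2H. In these tests 5, 0 and 4 members had an unadjusted p under 0.05, beside 5.72%, 3.81% and 10.1% of genes, and DESeq2 called 0 in each, among 11, 8 and 115 genes.

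To see whether clock phase differs between mice, log2 CPM of Arntl was subtracted from that of Dbp, since these transcripts peak at nearly opposite times of day. The contrast was 1.13, 1.94 and 1.72 in E2H mice, 1.18, 1.03 and 0.90 in E3H, and 0.90, 1.12 and 0.87 in E4H. It was 0.73, 2.10, 0.59 and 0.28 in PS/E2H mice, 2.01, 1.2, 1.73 and 2.03 in PS/E3H, and 1.83, 1.90, 0.56 and 2.13 in PS/E4H. The E3H and E4H mice lay close together, whereas PS/E2H and PS/E4H each held mice at both ends of the whole range of 1.84; E2H, with a range of 0.81, spread about as widely as PS/E3H, with 0.83, and no mouse lay between 1.2 and 1.72.

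Within groups the SD of this contrast was 0.27 in parental mice and 0.66 in PS19 mice, a ratio of 2.47, although E2H at 0.42 and PS/E3H at 0.39 were alike. The SD was 0.14 in E3H and 0.14 in E4H. That of E2H depends much on E2H 1, at 1.13 beside 1.94 and 1.72, and no ratio without E2H 1 is given. A broader contrast, the mean log2 CPM of the 8 repressor and output genes minus that of Arntl and Npas2, had within-group SDs of 0.11 and 0.41. It ran from 0.88 to 1.44 in parental mice and from 0.64 in PS/E2H 1 to 1.72 in PS/E4H 4 among PS19 mice. Of the 4 mice with more Ddx3y than Xist, PS/E2H 2, PS/E4H 1 and PS/E4H 4 had high contrasts and E4H 3 had the lowest of E4H. In the other 17 mice the SDs were 0.29 in parental and 0.49 in PS19 mice, a ratio of 1.71, and the contrast ran from 0.28 to 2.03. The contrast measures expression and not time: different times of death and different clock timing cannot be told apart, and no test was made of it.

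**Figure D3:**
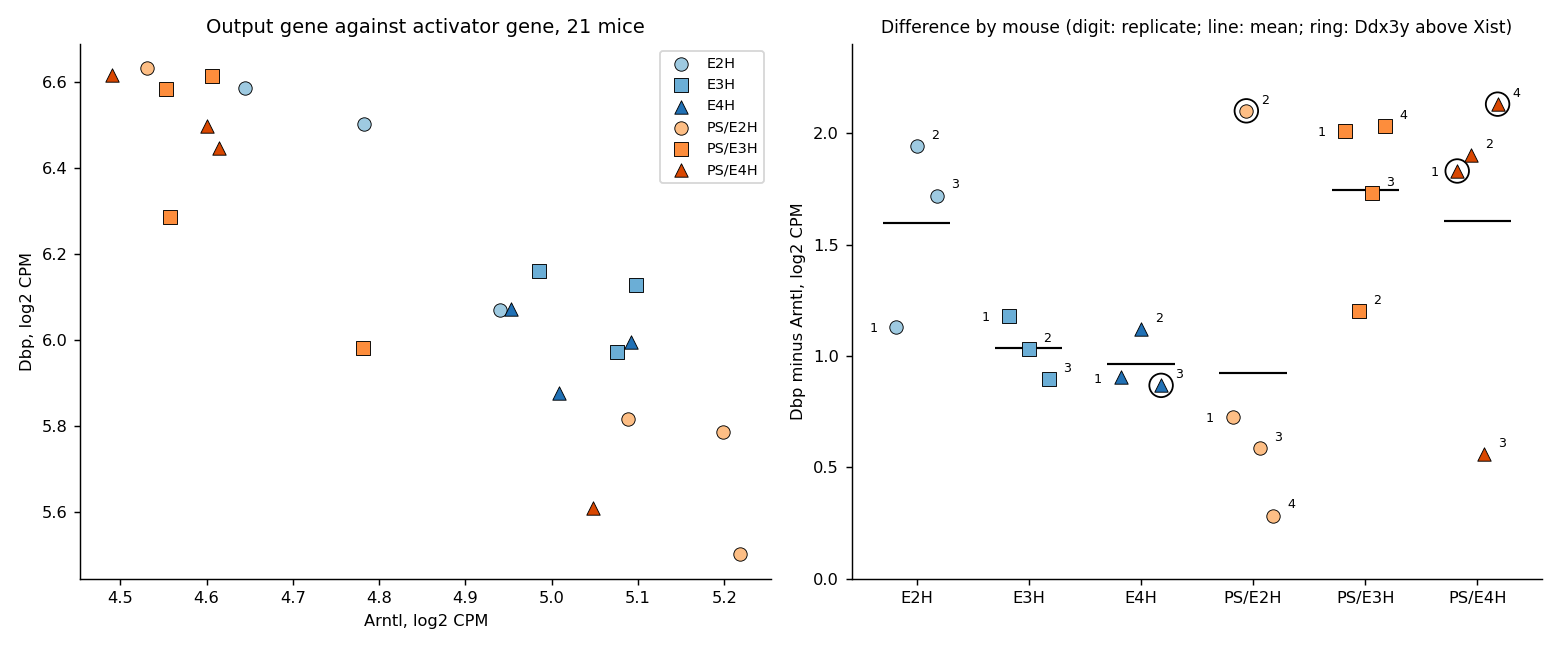
Left, log2 CPM of Dbp against log2 CPM of Arntl in 21 mice; right, Dbp minus Arntl in each mouse with group means as lines, replicate numbers as digits and rings around the 4 mice with more Ddx3y than Xist. PS/E2H 4 is lowest at 0.28 and PS/E4H 4 highest at 2.13.

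The wider spread in PS19 mice was seen gene by gene. The within-group SD of log2 CPM was larger in PS19 than in parental mice for 10 of 10 members, compared with 62.4% of all genes, and the median ratio was 1.98 against 1.14 over all genes. These values are for all 21 mice, and no ratio over genes of like mean level is given. Among such genes the percentile of the SD rose from parental to PS19 mice in most members, as from 37.3 to 92.1 for Arntl and from 92.4 to 98.7 for Per1. It fell from 75.0 to 71.3 for Nr1d1 and from 79.9 to 75.9 for Nr1d2. None of these values is given without the 4 mice with more Ddx3y than Xist. Without those 4 mice, the SD ratio of the Dbp and Arntl contrast was 1.71 in place of 2.47. Ciart had the highest ratio at 3.85, with SDs of 0.62 and 0.16, followed by Tef at 2.65, Arntl at 2.42 and Dbp at 2.36. Nr1d1 at 1.06 and Nr1d2 at 1.03 spread about alike in PS19 and parental mice. For Nr1d2 this depends on E2H 2, at 105 CPM beside 142 and 137 in its group, which widens the parental SD. No ratio without E2H 2 is given. Over all 21 mice the median of the members' SD percentiles was 45.4 among all genes tested and 90.1 among genes of like mean level. In the latter the percentiles ran from 42.3 for Tef to 98.4 for Dbp.

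**Figure D4:**
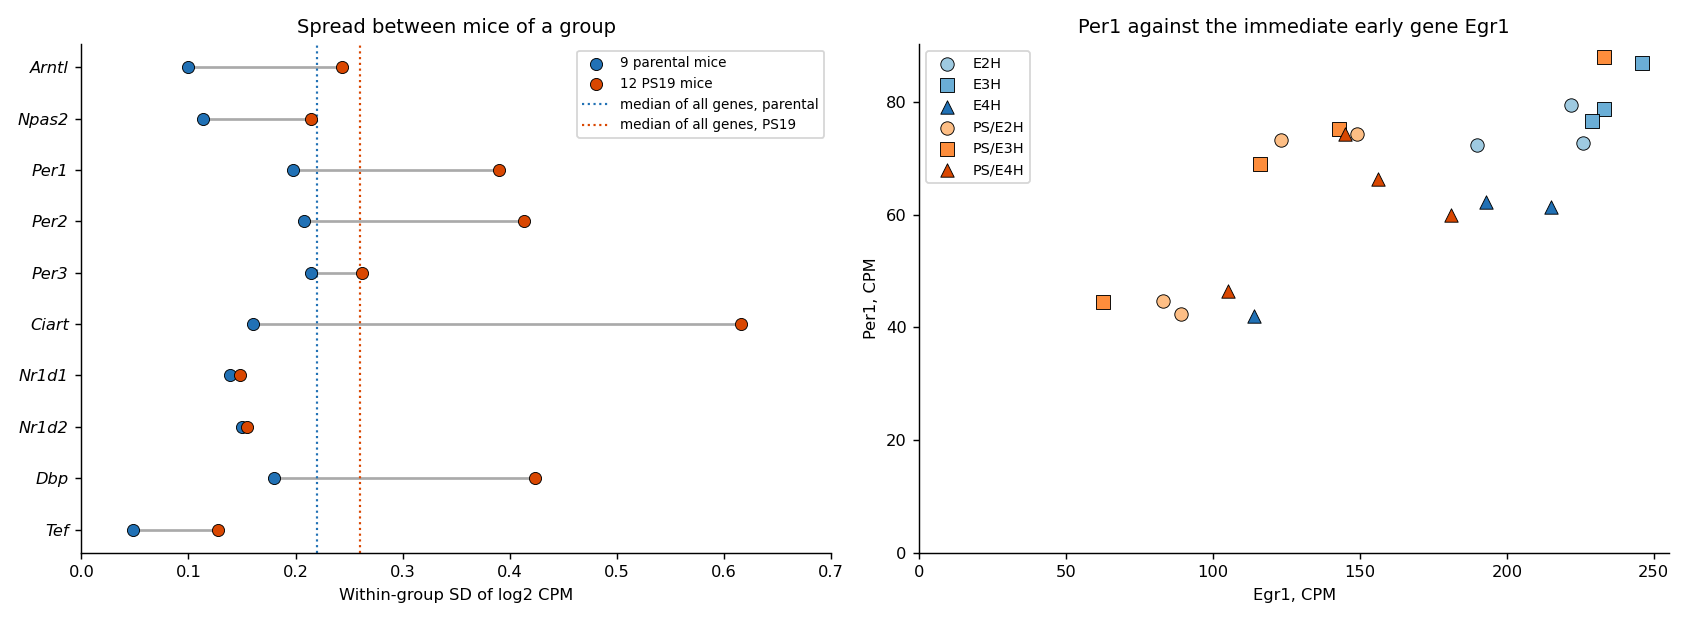
Left, within-group SD of log2 CPM of each clock gene in 9 parental and 12 PS19 mice, with the medians over all genes as dotted lines at 0.22 and 0.26; right, CPM of Per1 against CPM of Egr1 in each of 21 mice. Ciart moves from 0.16 to 0.62, and the 5 mice lowest in Per1 are also the 5 lowest in Egr1.

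Members were related across mice, with Arntl opposed to Dbp and Ciart. Of 45 pairs, 12 passed by r at an adjusted p under 0.05, 10 with positive and 2 with negative r. The share of pairs of other genes that would pass was not computed. Mice were shuffled across groups in the permutations, so differences between groups can add to a relation. Dbp and Arntl gave r -0.889 and rho -0.843 over 21 mice, each with a permutation p of 1e-05, the smallest that 100000 permutations can give, and an adjusted p of 0.00015. The relation kept its size without the 2 mice farthest from the median of Dbp (r -0.889), with group means removed (r -0.932), within 12 PS19 mice (r -0.944), within 9 parental mice (r -0.88) and within the 17 mice with more Xist than Ddx3y (r -0.855). Dbp and Ciart gave r 0.844 and rho 0.869, and Arntl and Ciart r -0.849 and rho -0.834, each with a permutation p of 1e-05 and an adjusted p of 0.00015. Without the 2 farthest mice these were 0.901 and -0.809.

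The other pairs that passed were all positive. Per1 and Per2 gave r 0.805 (rho 0.760, permutation p 6e-05, adjusted p 0.000675, without the 2 farthest mice 0.782), and Per2 and Per3 r 0.748 (rho 0.652, permutation p 0.0001, adjusted p 0.0009, without the 2 farthest 0.714). Arntl and Npas2 gave r 0.694 (rho 0.717, permutation p 0.00061, adjusted p 0.00457, without the 2 farthest 0.650), though r was 0.478 with group means removed. With group means removed, r of this pair was 0.553 within PS19 mice and -0.0228 within parental mice. Tef was related to Per2 at r 0.666, to Ciart at 0.625 and to Per1 at 0.609, Per1 to Ciart at 0.620 and to Dbp at 0.558, and Per2 to Ciart at 0.608. For these 6 pairs the permutation p ran from 0.00114 to 0.00868, the adjusted p from 0.00733 to 0.0325, and r without the 2 farthest mice from 0.481 to 0.688. Within 12 PS19 mice their r ran from 0.637 to 0.826, but within 9 parental mice it ran from -0.323 for Ciart with Tef, through 0.283 for Per1 with Tef, to 0.507 for Per1 with Dbp; Per2 and Per3 gave 0.880 and 0.244. Of the 6 pairs, Per1 with Dbp at rho 0.506 and Per1 with Ciart at rho 0.462 did not pass by rank, with permutation p of 0.0200 and 0.0355 and adjusted p of 0.0530 and 0.0842; the other 4 passed, with rho from 0.579 to 0.635. By rank alone, 4 further pairs passed with adjusted permutation p from 0.0302 to 0.0476: Dbp with Per2 at rho 0.575, with Npas2 at -0.534 and with Tef at 0.531, and Nr1d2 with Ciart at 0.540. Nr1d1 passed with no other member, and Nr1d2 with none by r. Libraries and scaling are shared by all pairs, and no pair is independent of the others.

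**Figure D5:**
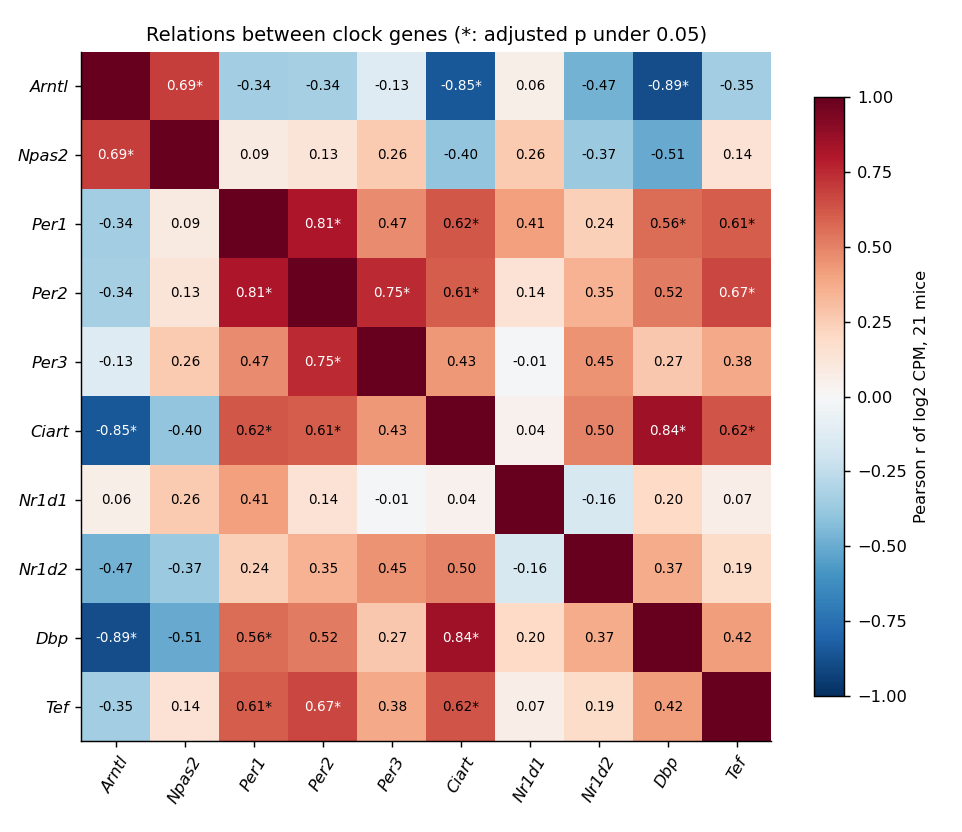
Pearson r of log2 CPM between each pair of the 10 clock genes over 21 mice, coloured from -1 to 1; asterisks mark pairs with an adjusted p under 0.05. Arntl is negative with Dbp and Ciart, and Nr1d1 and Nr1d2 carry no asterisk.

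Among 15774 genes with a mean of at least 1 CPM, and with the members left out of the ranking, those most like Dbp across mice, by r with group means removed, were R3hcc1 at 0.916, Coq10b at 0.894, Ddah2 at 0.881, Gkn3 at 0.855, Myl9 at 0.843, Dmap1 at 0.839, Edn3 at 0.816, Trpv2 at 0.807, Ltbp4 at 0.793 and Bdh1 at 0.791. Those most like Arntl were Shisa6 at 0.891, Angpt2 at 0.880, Tgoln1 at 0.845, Slc4a7 at 0.832, Plat at 0.832, Ahcyl1 at 0.831, Gm26782 at 0.828, Gpr179 at 0.823, Heph at 0.821 and Sphkap at 0.820. The median r over those genes was 0.016 with Dbp and -0.0167 with Arntl, and no test was made of this ranking.

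Per1 levels were also related to those of neuronal activity genes. Egr1, an immediate early gene, had 190, 226 and 222 CPM in E2H, 246, 233 and 229 in E3H, and 193, 215 and 114 in E4H. It had 83.0, 149, 89.1 and 123 CPM in PS/E2H, 233, 62.4, 116 and 143 in PS/E3H, and 145, 156, 105 and 181 in PS/E4H. The 5 mice lowest in Egr1, E4H 3, PS/E2H 1, PS/E2H 3, PS/E3H 2 and PS/E4H 3, were the 5 lowest in Per1. Over 21 mice r was 0.791 with a permutation p of 5e-05 and an adjusted p of 0.00336, and rho 0.757 with a permutation p of 0.00013 and an adjusted p of 0.0163, over the 210 relations of members with genes of 2 lists. Without the 2 mice farthest from the median r was 0.774, with group means removed 0.880, and in the 17 mice with more Xist than Ddx3y 0.839. Among these relations, Per1 passed by r with 10 of 10 immediate early genes, Dbp with 8, Per2 with 6, Ciart with 5 and Per3 with 1, and the other members with 0. By rho these counts were 6, 7, 5, 4 and 0, and 0 for the others. No share over all genes was computed for these counts. Genes of a list can move together across mice, so the relations counted are not independent. The permutations shuffled mice across groups, so differences between groups can add to these relations. With the other glucocorticoid response genes, Ciart passed with 1, Sgk1, at r 0.593 (permutation p 0.00555, adjusted p 0.0413; rho 0.579, permutation p 0.00743, adjusted p 0.0578), and the other members with 0; by rho, Ciart passed with Errfi1 at 0.604 and Tsc22d3 at 0.590, and Tef with Errfi1 at 0.653, with adjusted permutation p of 0.0444, 0.0492 and 0.0272. With group means removed, for which no test was made, Per1 had r 0.832 with Sgk1 and 0.759 with Tsc22d3, and Tef 0.804 with Tsc22d3; within 9 parental mice these were 0.108, 0.126 and -0.486. For Dbp, r without the 2 mice farthest from its median, PS/E2H 4 and PS/E4H 3, went from -0.0138 to 0.767 with Errfi1, from 0.281 to 0.680 with Sgk1 and from 0.294 to 0.637 with Tsc22d3. With the rest of that list, r of Dbp without these 2 mice ran from -0.142 to 0.363. With group means removed it was -0.0133 with Errfi1, 0.266 with Sgk1 and 0.377 with Tsc22d3. PS/E2H 4 had the most Errfi1, Sgk1 and Tsc22d3 of all mice, at 70.4, 282 and 127 CPM.

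As a list, 10 immediate early genes had a median log2 fold change of -0.87 in PS/E2H, -0.19 in PS/E3H, 0.28 in PS/E4H and -0.22 over all mice. By edgeR 0 of 10 passed in each line, with 8, 1 and 0 at an unadjusted p under 0.05, beside 10.7%, 21.4% and 30.1% of all genes, and over all mice 1 passed, Egr1, lower at -0.66 (SE 0.175) with an adjusted p of 0.00936 and below its line's mean in 11 of 12 PS19 mice, beside 9.63% of all genes called lower. Of 12 glucocorticoid response genes, Per1 among them, 2, 4 and 10 were higher by edgeR in PS/E2H, PS/E3H and PS/E4H, beside 0.669%, 3.35% and 8.62% of all genes, with medians of 1.13, 0.71 and 0.71, and 10 over all mice, beside 11.4%, with a median of 0.92. Single mice stood apart in this list. PS/E3H 2 was below all E3H mice in Sgk1 (57.6 CPM) and Tsc22d3 (52.3 CPM), though above them in Plin4 (12.7 CPM). PS/E2H 4 was far above the rest of its group in Cdkn1a (148 CPM) and Plin4 (110 CPM). Over all mice, Plin4 was higher by 3.44, Cdkn1a by 1.76, Hif3a by 1.5 and Sult1a1 by 1.41 on the log2 scale, in 12, 12, 11 and 12 of 12 PS19 mice, with adjusted p of 2.64e-07, 9.5e-06, 1.05e-05 and 9.23e-05 by edgeR.

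Among 18 other clock genes, all tested, edgeR called 0 in PS/E2H, 2 higher in PS/E3H, 1 higher and 1 lower in PS/E4H, and 2 higher and 2 lower over all mice; 2 had an unadjusted p under 0.05 in PS/E2H. Over all genes 3.35% were higher in PS/E3H, 8.62% higher and 6.98% lower in PS/E4H, 11.4% higher and 9.63% lower over all mice, and 10.7% at that unadjusted p in PS/E2H. Bhlhe41, a repressor of the activating pair, was higher by 0.38 in E3H and 0.50 in E4H on the log2 scale, with adjusted p of 0.0189 and 0.0162 by edgeR, in 4 of 4 mice each, and by 0.27 over all mice with an adjusted p of 0.0152, in 8 of 12 mice; in E2H it was -0.09 with an adjusted p of 0.821, lower in 4 of 4 mice. Bhlhe40, its relative, was lower over all mice, with a log2 fold change of -0.21 and an adjusted p of 0.00877 by edgeR, in 12 of 12. Arntl2, a paralogue of Arntl, was lower in E4H, with a log2 fold change of -0.68 and an adjusted p of 0.0396 by edgeR, in 4 of 4 mice, and over all mice, with -0.49 and an adjusted p of 0.0041, in 12 of 12.

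Clock, Cry1 and Cry2, the partner and co-repressors of the core loop, did not pass in any tau comparison by edgeR. Over all mice the log2 fold change was -0.03 (SE 0.0644) for Clock, 0.20 (SE 0.0718) for Cry1 with an adjusted p of 0.0535, and -0.02 (SE 0.0651) for Cry2.

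Cell type markers moved with the same groups, over all PS19 against all parental mice by edgeR, and their part in the clock gene differences was not tested. Of all genes 11.4% were higher and 9.63% lower in this comparison. Of 5 astrocyte markers 5 were higher, with a summed level of 2433 to 3016 CPM in parental and 3915 to 5854 CPM in PS19 mice, and Slc1a2 has the highest mean. Of 5 microglia markers 4 were higher. Of 5 neuron markers 1 was higher and 3 lower, summing to 5236 to 5835 CPM and 4455 to 5705 CPM, with Snap25 the most abundant. None of these markers was at 0 in any mouse.

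Of 5 oligodendrocyte markers 3 were higher (4577 to 6807 CPM and 5905 to 8848 CPM, led by Mbp), of 5 endothelial markers 2 (122 to 178 CPM and 134 to 202 CPM, led by Slco1a4), and of 5 choroid plexus markers 2 (442 to 761 CPM and 415 to 1220 CPM, mostly Ttr). For the suprachiasmatic nucleus, the seat of the central clock, 1 of 6 markers was higher and 1 lower, summing to 54.1 to 80.0 CPM in parental and 68.3 to 83.4 CPM in PS19 mice. Most of that was Vip, with a mean of 38.7 CPM, and Rgs16, which other forebrain regions express too, while Six6 and Prok2 averaged 0.297 and 0.235 CPM and were at 0 in 3 mice and in 1. Of 5 pituitary markers 4 were tested and 1 was lower (1.24 to 10.6 CPM and 0.756 to 4.84 CPM, led by Pomc), and Lhb was at 0 in all 21 mice. Of 4 erythroid markers 0 passed by edgeR, with 4 at an unadjusted p under 0.05 (155 to 618 CPM and 23.1 to 309 CPM, led by Hbb-bs), and of 3 pineal markers 2 were tested and 0 passed, with 1 at an unadjusted p under 0.05 (0.300 to 1.18 CPM and 0.179 to 1.28 CPM, led by Tph1).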

How the data were processed

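Whole forebrain RNA of 21 mice was analysed from 2 gene tables. The deposited count table holds raw counts per gene, and the FPKM table holds values that the authors made with StringTie after HISAT2 alignment; how counts were derived from StringTie output is not stated. All 21 columns of each table matched a mouse, with 0 unmapped. The 10 members were matched by symbol.

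Counts were tested in R 4.3.3 with edgeR 4.0.16 (TMM, filterByExpr with a minimum count of 10, quasi-likelihood F test, Benjamini-Hochberg over all genes tested, adjusted p under 0.05, two-sided), each comparison on its own groups and the pooled comparison with the APOE line as a covariate. DESeq2 1.42.0 and limma 3.58.1 on FPKM, other filters and leaving out each mouse were alternatives. SE is the fold change divided by the root of F. The settings were first tested on simulated data.

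Correlations used log2 CPM (prior count 2) and two-sided permutation tests with 100000 resamples in Python 3.11.15 (numpy 2.4.6, scipy 1.17.1, pandas 2.3.3; figures with matplotlib 3.10.9), adjusted over 45 pairs of members or 210 pairs of a member with a list gene. Spread is the pooled SD of log2 CPM about group means, and genes of like level are those in the same of 10 bins of mean log2 CPM. Depth sets counting error only, and no intervals were made.

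The members and lists were chosen with earlier results of these data known. The named genes were the 10 members, some of the other clock genes that passed along with Clock, Cry1 and Cry2, up to 4 glucocorticoid response and immediate early genes with the smallest adjusted p, and the 10 genes most like Dbp and most like Arntl. Sgk1, Tsc22d3 and Errfi1 were named as well, for their correlations with members. One of the other clock genes that passed, and the summed level of the microglia markers, are not reported here. Chosen after the data were seen were the 210 relations and the plotted pair of Per1 and Egr1, the ratios of SD, the median percentile and the range used to summarise spread and contrast, the check of sex and its alternatives, and the mention of Rora. The motif letters and the printed stretches were chosen after the promoter sequences had been looked at, and TAGGTCA was narrowed from shorter letters then. Sequences are from RefSeq (GRCm38.p6); gene positions and overlaps are from GENCODE.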

Additional observations from a re-analysis of the deposited data

Results flagged for a closer look

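In groups of 4 mice, 36 sets of values (each clock gene and each contrast in each PS19 group) were looked at for a mouse far from its group, and 5 held one. Chance gives about 1 in 20. PS/E3H 2 stood below the rest of its group in 3 genes. It had 21.3 CPM of Npas2 beside 27.1 to 28.0 in the others, 12.5 CPM of Ciart beside 25.9 to 26.0, and 316 CPM of Tef beside 392 to 405. In the contrast of repressor and output genes minus activators, on the log2 scale, PS/E2H 2 stood above its group at 1.63 beside 0.64 to 0.79. PS/E4H 3 stood below its group at 0.67 beside 1.55 to 1.72. Groups of 3 mice were not looked at in this way.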

How the results depend on the processing

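Counts of clock genes called by edgeR were 0 in most comparisons and settings, and no fold change of a called gene turned its sign. In PS/E3H against E3H the count of 2 became 3 by DESeq2, 1 without a filter on low counts and in limma on log2(FPKM + 0.1), and 0 with a fold change of at least 2, in limma on log2(FPKM + 1) with or without a filter, and in a fit of all 21 mice; leaving out single mice gave 0 to 2, with 0 without E3H 1, 2 or 3 or PS/E3H 4 and 1, Arntl, without PS/E3H 3. In PS/E4H against E4H the count of 1 became 0 without a filter, with a fold change of at least 2, in the 3 limma fits and with the 4 Ddx3y mice as a covariate (chosen after seeing the data); leaving out single mice gave 0 to 5, with 5 without PS/E4H 3 (Dbp, Nr1d2, Arntl, Npas2 and Ciart). The pooled count of 2 became 1 without a filter and in the 3 limma fits, and 0 with a fold change of at least 2; leaving out single mice gave 0 to 2, with 0 without E4H 2. DESeq2 gave 1 in place of 0 in E4H against E3H, PS/E2H against PS/E3H and PS/E4H against PS/E2H. With replicate number as a block, the counts were 0 in PS/E3H against E3H, 0 in PS/E4H against E4H and 1 over all mice; replicate numbers do not pair mice, since same-number pairs correlated at r -0.12 to 0.096 over 48 pairs. The log2 fold change of Npas2 over all mice ran from -0.32 to -0.24 and passed in 28 of 30 alternatives, that of Per3 from -0.31 to -0.21 and passed in 10 of 30. Arntl in E3H ran from -0.49 to -0.36 (7 of 16 passed), Npas2 in E3H from -0.44 to -0.32 (3 of 16) and Npas2 in E4H from -0.57 to -0.35 (4 of 17). The median percentile of spread, 45.4, was 39.2 to 50.5 in all alternatives, and the contrast's range of 1.84 was 1.65 to 1.84 under other scalings and 1.75 in the 17 mice with more Xist than Ddx3y (chosen after seeing the data), where 10 rather than 12 relations passed. With FPKM 15 relations passed, and leaving out single mice gave 9 to 17. The cause of these differences between settings was not tested, apart from the fold limit, which no called member reaches.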

Other observations

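Rora, which codes for a receptor that activates Arntl, had 2.69 CPM in E4H 2 (203 counts) and 2.03 CPM in PS/E2H 2 (119 counts), while the other 19 mice had 68.5 CPM or more. In the FPKM given by the authors these 2 mice had 0.190 and 0.138. Their contrasts of Dbp minus Arntl were 1.12 and 2.10, the first like the other E4H mice and the second high. These values are given as measured, and no cause was tested.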
